A study of Mus musculus with 4 samples.

Results

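A set of 10 ubiquitin-system genes that are studied for their part in T cell tolerance were followed in regulatory T cells: the ligases Itch, Nedd4, Rnf128, Peli1 and Stub1, the ligase adaptor Ndfip1, the deubiquitinases Usp7 and Usp21, and the signalling adaptors Traf3 and Traf6. They were chosen by symbol, and all 10 were found among the 55450 annotated genes of the deposited tables. The RNA was polyA-selected and came from regulatory T cells (Treg), the CD4 T cells that restrain immune responses, which the labels describe as inflammation-experienced. The donor was a male mouse aged 6 months of the strain Foxp3CreERT2 x Rosa26YFP, in which the Foxp3 locus drives an inducible Cre recombinase and a fluorescent protein can report its activity from Rosa26. The labels count the 4 libraries, called libraries 1 to 4 here, as technical replicates of 1 biological replicate, so no condition was compared. Every p-value below concerns only these libraries. It measures either the spread between them, which may be technical, or the order of a pair of genes within them.

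Ubiquitin is a small protein that is linked to other proteins by a relay of E1 activating, E2 conjugating and E3 ligase enzymes, and deubiquitinases take it off again. Depending on how the ubiquitin units are joined, the mark sends a protein to the proteasome or builds a platform for signalling. In T cells, E3 ligases limit activation by removing components of antigen receptor signalling, while TRAF proteins join receptors of the TNF family, CD28 and the IL-1 and Toll-like receptors to NF-kB and MAP kinase pathways. In Treg, the stability of Foxp3 itself, the transcription factor that defines the lineage, is set in part by ubiquitin: Stub1 marks Foxp3 for degradation and Usp7 removes the mark.

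The transcripts of several of these genes differ in the message they carry, and the sequences below show the 4 differences to which the isoform results refer. All are read from the GENCODE M21 transcripts on mm10, 5′ to 3′ on the gene's strand. For Traf3, capitals mark the coding exon 8 (chr12:111251130-111251204), 75 bases or 25 codons long, which Traf3-201 includes and Traf3-202 and Traf3-203 skip without a change of frame, with 20 bases of the exons on either side in lower case.
Traf3-201 with exon 8: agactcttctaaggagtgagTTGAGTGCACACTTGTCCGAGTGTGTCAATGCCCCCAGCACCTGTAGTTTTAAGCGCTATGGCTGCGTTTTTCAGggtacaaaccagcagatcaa
Traf3-202 without exon 8: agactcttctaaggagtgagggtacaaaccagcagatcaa
For Rnf128, capitals mark the last 30 coding bases of the alternative first exons, each joined to the same second exon in lower case (plus strand, ending at chrX:139642305).
Rnf128-202 first junction: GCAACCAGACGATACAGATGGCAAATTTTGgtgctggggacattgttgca
Rnf128-201 first junction: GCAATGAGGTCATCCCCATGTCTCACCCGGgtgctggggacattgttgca
For Stub1, the line shows the intron that Stub1-206 keeps and Stub1-204 removes (chr17:25831366-25831543, minus strand), with the part annotated as the hairpin of the microRNA gene Mir3082 in capitals.
Stub1-206 retained intron: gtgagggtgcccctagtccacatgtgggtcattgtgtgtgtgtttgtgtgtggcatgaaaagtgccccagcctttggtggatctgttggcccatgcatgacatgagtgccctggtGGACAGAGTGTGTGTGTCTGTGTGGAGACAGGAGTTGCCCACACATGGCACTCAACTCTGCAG
For Usp7, the line shows a coding exon of Usp7-208 (chr16:8711994-8712192, minus strand), with the 60 bases that Usp7-206 keeps in capitals and the 139 bases that it lacks in lower case.
Usp7-208 exon: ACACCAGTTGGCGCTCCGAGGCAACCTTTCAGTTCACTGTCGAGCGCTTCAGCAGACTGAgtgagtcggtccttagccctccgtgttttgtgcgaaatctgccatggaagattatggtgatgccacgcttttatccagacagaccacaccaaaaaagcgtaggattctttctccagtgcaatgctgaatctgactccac

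The main gene tables held 6643582 to 9334677 expected counts per library within the annotation, and library 4 was the shallowest. All 8 Treg markers examined reached 10 TPM, a level corrected for transcript length and scaled to a fixed total per library, in every library, from Foxp3 at 27.8 ± 8.01 TPM (SD, n = 4) to Izumo1r, which encodes folate receptor 4, at 1192 ± 242 TPM. Summed TPM of 6 markers per list ran from 92.3 to 194 over the libraries for B cells, from 8.49 to 35.3 for myeloid cells and from 137 to 233 for CD8 T and NK cells, the last mostly Nkg7 at 139 ± 34.8 TPM. The 5 dendritic cell markers summed to 2.35 to 5.08 TPM, with Siglech listed at 0 in libraries 2 and 4. The 4 erythroid globin genes and Alas2, the heme synthesis enzyme of red cells, summed to 1065 TPM in library 1 and to 4.60, 38.6 and 17.2 TPM in libraries 2 to 4, with Hba-a1 listed at 0 in library 2 and Hbb-bt in library 4. In these bulk samples, fewer cells of a type and less RNA per cell cannot be told apart.

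The levels of the 10 genes spanned from below 1 to above 100 TPM. By mean TPM the order was Ndfip1, Stub1, Peli1, Itch, Usp7, Usp21, Traf6, Traf3, Nedd4 and Rnf128. Itch, Peli1, Ndfip1, Stub1, Usp7 and Usp21 reached 10 TPM in every library, and Traf3 and Traf6 reached 1 TPM in every library but not 10. The median of the 10 means was 23.6 ± 3.52 TPM (SD over the medians of the 4 libraries), beside a median of 20.1 TPM over the 9942 nuclear protein-coding genes that reached 1 TPM in every library. Ndfip1 stood at the 91.2 percentile of those genes, and the mean of Nedd4 lay at their 2.35 percentile. Nedd4 and Rnf128 are not among them, with 0.94 and 0.26 TPM in library 2. The median of the 10 genes includes both, so these medians are of unlike sets.

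**Figure D1:**
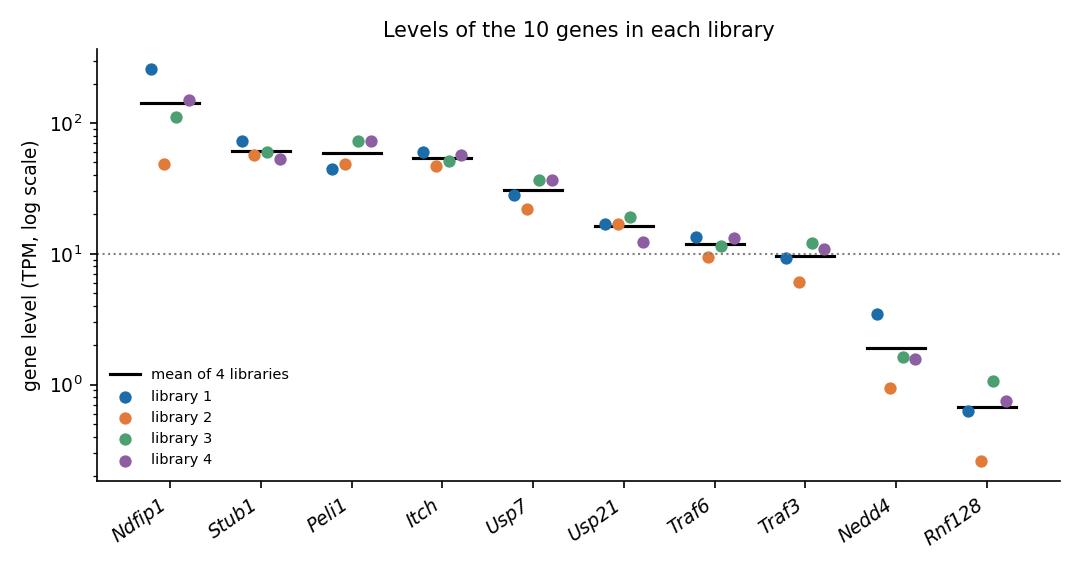
Level of each gene in TPM on a log axis, one point per library, with a bar at the mean of the 4 libraries and a dotted line at 10 TPM. Ndfip1 ranged from 49.0 TPM in library 2 to 260 TPM in library 1, while Itch stayed between 46.9 and 60.4 TPM.

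The order was set against the spread of the libraries by the log2 ratio of TPM + 0.1 within each library, a scale that understates differences of low genes. Of the 9 pairs of neighbours in the order, 2 had ratios of 1 sign in all 4 libraries and a mean ratio above 2 SD. They were Itch over Usp7, with a log2 ratio of 0.83 ± 0.31 (SD, n = 4), and Traf3 over Nedd4, with 2.37 ± 0.66. Neither held in every quantification: Itch over Usp7 was 0.69 ± 0.37 in the rescaled tables made from the reads and 0.29 ± 0.37 in the counts on the older annotation, and Traf3 over Nedd4 was 1.04 ± 0.80 in the latter. Usp7 over Usp21, at 0.89 ± 0.50, and Nedd4 over Rnf128, at 1.34 ± 0.75, had 1 sign in all 4 libraries but a mean under 2 SD. In the rescaled tables made from the reads both exceeded 2 SD, at 1.18 ± 0.52 and 2.00 ± 0.97. In the counts on the older annotation Usp7 over Usp21 was 0.35 ± 0.52, under 2 SD. Nedd4 over Rnf128 was 2.80 ± 0.997 there, above 2 SD. The other 5 pairs of neighbours changed sign between libraries: Stub1 was above Peli1 in 2 of 4 libraries, and Ndfip1 over Stub1, Peli1 over Itch, Usp21 over Traf6 and Traf6 over Traf3 each in 3 of 4. With 4 libraries the exact two-sided sign-flip permutation test cannot give a p below 0.125, and the separated pairs had this p. Adjusted by Benjamini-Hochberg it was 0.208 over 15 pairs, of which 2 were entered in both sets of pairs, and 0.203 over the 13 distinct pairs.

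Among the HECT ligases of the NEDD4 family, Itch was far above its relative Nedd4. Itch, which ubiquitinates JunB and PLC-gamma1 and whose loss causes the itchy mouse phenotype, was read from ENSMUSG00000027598.16 (plus strand, chr2:155133509-155226855). Its levels were 60.4, 46.9, 51.7 and 56.6 TPM in libraries 1 to 4, or 53.9 ± 5.86 (SD, n = 4). These values lie close together, with library 2 the lowest. Nedd4, which promotes T cell activation by marking Cbl-b, was read from ENSMUSG00000032216.14 (plus strand, chr9:72662346-72749852) at 3.47, 0.94, 1.63 and 1.58 TPM, or 1.91 ± 1.09. Library 1 was above the other 3. The lowest Itch value was above the highest Nedd4 value, and the log2 ratio of Itch to Nedd4 was 4.89 ± 0.59 (exact two-sided sign-flip permutation p = 0.125, adjusted 0.208, n = 4). In length-scaled counts on the older GENCODE M4 annotation the levels were 39.2 ± 10.7 for Itch and 1.75 ± 0.917 for Nedd4.

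Ndfip1, a membrane protein with PY motifs that recruits and activates Itch and Nedd4, varied most of the 10 between libraries. It was read from ENSMUSG00000024425.4 on chromosome 18. Its levels were 260 TPM in library 1, 49.0 in library 2, 110 in library 3 and 150 in library 4, which gives 142 ± 88.7 (SD, n = 4). The expected counts behind them were 2954, 638, 1372 and 1341, so counting error is small beside these differences. The highest level was 5.31 times the lowest, and 2.35 to 5.31 times with each library left out in turn, 2.35 without library 2 and 3.06 without library 1. On the CPM scale, expected counts relative to TMM-scaled library sizes, the highest library was 4.54 times the lowest. That ratio stood at the 99.6 percentile of the 8337 genes averaging 100 counts or more, whose median was 1.38. The length-scaled counts on the older annotation gave a ratio of 10.001, with 2590, 290, 824 and 981 counts in libraries 1 to 4.

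Ndfip1 transcripts begin at a pair of starts 8511 bases apart. Both starts varied between libraries, the downstream one over the wider range. Ndfip1-203, the coding transcript of the upstream start with a coding length of 642 bases, had 8.21, 37.6, 61.4 and 45.0 TPM in libraries 1 to 4. The 5 transcripts of the downstream start summed to 243, 4.69, 36.3 and 94.5 TPM. On average they were led by the coding Ndfip1-204, with a coding length of 663 bases. Ndfip1-204 was listed at 0 in library 2, where the sum rests on 26.4 expected counts. The tables made from the reads gave Ndfip1-204 8.63% of Ndfip1 TPM there, and the downstream start 133 estimated counts. Library 1, the highest in Ndfip1, was thus the lowest for the upstream start and the highest for the downstream start. The downstream start held 93.5% of Ndfip1 TPM in library 1, 9.58% in library 2, 32.8% in library 3 and 63.0% in library 4. In the tables of estimated counts made from the reads, the libraries had the same order, with 94.4%, 22.9%, 60.9% and 81.1%. The split between the starts is a model estimate over whole transcripts, and junction reads were not analysed. Library 1 was also the highest in the sum of the erythroid markers given above, of the B cell markers (194, 133, 92.3 and 158 TPM in libraries 1 to 4) and of the myeloid markers (35.3, 10.8, 8.49 and 21.3 TPM). Library 4 was instead the highest in the CD8 T and NK cell markers (143, 137, 166 and 233 TPM). It was also the highest in the dendritic cell markers (4.53, 2.35, 3.62 and 5.08 TPM). The part of other cells in the Ndfip1 level was not tested.

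**Figure D2:**
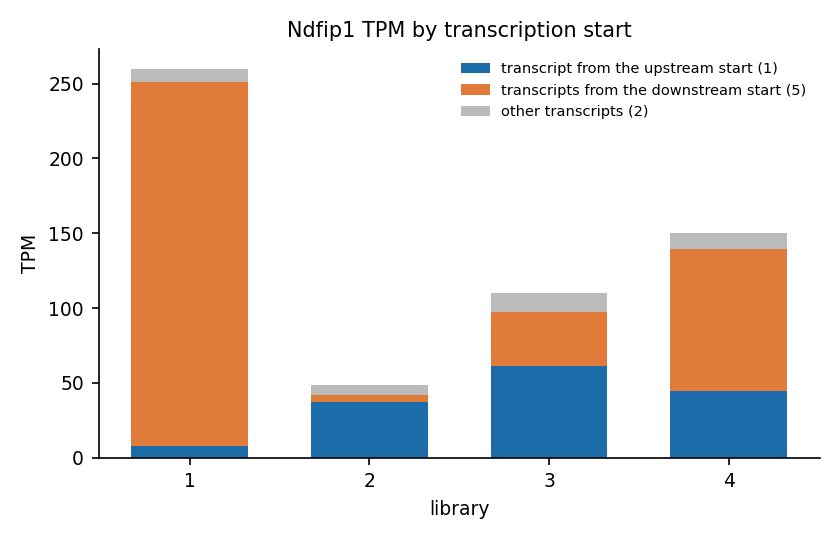
Ndfip1 TPM in each library as stacked bars, split into the transcript of the upstream start, the 5 transcripts of the downstream start and the 2 remaining transcripts. The downstream start accounts for 243 TPM in library 1 and 4.69 TPM in library 2, while the upstream start has 8.21 and 37.6 TPM there. The 4.69 TPM rest on 26.4 expected counts.

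The NEDD4 family around these members was uneven. Of the 11 family and adaptor genes listed, 5 reached 10 TPM in every library, and the list median was 5.09 ± 1.16 TPM (SD over the medians of the 4 libraries). Wwp2 was the most abundant ligase of the family at 102 ± 10.7 TPM, above Itch in each of the 4 libraries. The adaptor Ndfip2 lay between 29.5 and 31.3 TPM, or 30.3 ± 0.929, whereas its paralog Ndfip1 spanned 49.0 to 260 TPM. Smurf2 stood at 14.6 ± 4.35 TPM, and Wwp1, Smurf1 and Nedd4l at 5.09 ± 1.27, 4.57 ± 0.714 and 3.79 ± 1.09. Hecw1 and Hecw2 were near 0, at means of 0.0900 and 0.0125 TPM.

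Among the RING and U-box ligases, Peli1 and Stub1 were well expressed and Rnf128 was close to the limit of detection. Rnf128, also called GRAIL, is a transmembrane ligase known from anergic T cells (ENSMUSG00000031438.11, plus strand, chrX:139563316-139673145). It had 0.63, 0.26, 1.07 and 0.75 TPM in libraries 1 to 4, or 0.678 ± 0.335 (SD, n = 4). These levels rest on 11, 5, 21 and 10 expected counts, with exact Poisson 95% intervals of 5.49 to 19.7, 1.62 to 11.7, 12.999 to 32.1 and 4.80 to 18.4 counts, which cover counting error only. The intervals of libraries 1, 2 and 4 overlap. That of library 3 overlaps those of libraries 1 and 4 and lies above that of library 2 alone. On the older annotation the counts were 3, 0, 9 and 3, and the 0 of library 2 allows up to 3 counts. Rnf128 was below Itch in 4 of 4 libraries, with a log2 ratio of -6.23 ± 0.65.

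The first exon of Rnf128 differed between libraries as the tables assigned it. All counts of libraries 1, 2 and 4 were assigned to Rnf128-202, which has the upstream first exon printed above, and all 21 counts of library 3 to Rnf128-201, whose start lies 47304 bases downstream. With 11, 5 and 10 counts, a share of 0 for Rnf128-201 still allows up to 27.3%, 60% and 30% in libraries 1, 2 and 4. These limits treat every count as able to tell the first exons apart. Reads in shared sequence cannot, so the real limits are looser. No limit was computed for library 3, to which the same applies. The tables made from the reads gave the same assignment, on 15, 6, 24 and 11 counts. They come from the same libraries and are not independent evidence.

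Peli1, which ubiquitinates c-Rel in T cells, was read from ENSMUSG00000020134.13 (plus strand, chr11:21091291-21150323). Its levels were 44.2 and 48.2 TPM in libraries 1 and 2, and 72.9 and 72.4 in libraries 3 and 4, or 59.4 ± 15.3 (SD, n = 4). The libraries thus formed a lower and a higher pair. Peli1-201, from the upstream start, held 73.4 ± 7.81% of Peli1 TPM, and Peli1-202, from a start 44178 bases downstream with the same coding length of 1254 bases, held 12.4 ± 5.41%. The share of Peli1-202 was 17.8% in library 1, 4.92% in library 2, 13.1% in library 3 and 13.7% in library 4, with library 2 the lowest. A processed pseudogene, 2610024D14Rik, lies within Peli1 on the same strand and was listed at 11.2 ± 4.01 TPM. Length-scaled older counts placed Peli1 at 28.7 ± 7.09, below Itch.

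Stub1, also called CHIP, is a co-chaperone and U-box ligase that works with Hsp70 (ENSMUSG00000039615.9, minus strand, chr17:25830505-25833404). Its levels were 72.7, 57.3, 60.4 and 52.9 TPM in libraries 1 to 4, or 60.8 ± 8.48 (SD, n = 4). Library 1 was the highest and the other 3 lay within 10 TPM of each other. Most of this level was assigned to transcripts annotated with a retained intron: 68.3%, 69.1%, 65.3% and 67.3% of Stub1 TPM, or 67.5 ± 1.63%. Stub1-206, which keeps the intron printed above, led in every library with 57.2%, 49.4%, 45.4% and 39.8%. The intron begins with GT and ends with AG in the printed sequence, is 178 bases long and 55.1% GC, and, read in the frame of the coding Stub1-204, brings a stop codon that starts at its base 103. The 4 coding transcripts held 32.5 ± 1.63% of TPM in the main tables and 26.3 ± 4.57% in the tables made from the reads.

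The coding share of Stub1 stayed within 30.9% to 34.7% over the libraries, although the coding Stub1-204 alone varied from 9.75% in library 4 to 29.95% in library 2. The 3′ part of Stub1 overlaps the gene Jmjd8 on the opposite strand over 1339 bases (chr17:25830505-25831843), and this stretch includes the retained intron. Jmjd8 had 25.3 ± 4.82 TPM. Whether the counts were made by strand is not given in the sources used here, so reads of Jmjd8 and of Stub1 cannot be told apart there. The older counts of Stub1 were 1.83 to 2.04 times the main counts, with a mean of 1.95. Over 9851 expressed coding genes this ratio had a median of 1.17 and a 95th percentile of 1.999.

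The other RING and U-box ligases listed gave a frame for these levels. Of the 22 genes, 14 reached 10 TPM in every library, with a list median of 27.6 ± 4.74 TPM (SD over the medians of the 4 libraries). Birc3, an inhibitor of apoptosis that works with TRAF2, stood at 103 ± 3.74 TPM and Sharpin, a part of the linear ubiquitin ligase, at 98.0 ± 13.01. The paralogs Peli2 and Peli3 were the lowest, at 0.578 ± 0.435 and 0.168 ± 0.0386 TPM, and Peli1 was above both in every library.

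The deubiquitinases Usp7 and Usp21 were both expressed in every library, and for Usp7 the annotated full-length coding transcripts held little of the level. Usp7, which stabilises Foxp3 and Mdm2, was read from ENSMUSG00000022710.17 (minus strand, chr16:8689595-8792308). It had 28.0 and 22.1 TPM in libraries 1 and 2 and 36.6 and 36.5 in libraries 3 and 4, or 30.8 ± 7.07 (SD, n = 4). As for Peli1, libraries 3 and 4 were above libraries 1 and 2. Usp21, which removes ubiquitin from Gata3 in Treg, was read from ENSMUSG00000053483.13 (minus strand, chr1:171281945-171287991) at 17.0, 17.0, 19.2 and 12.3 TPM, or 16.4 ± 2.89. Library 4, with 89 expected counts, was the lowest. Usp7 was above Usp21 in 4 of 4 libraries of the main tables, but the mean log2 ratio of 0.89 ± 0.50 was less than 2 SD. In length-scaled counts on the older annotation the ratio was 0.35 ± 0.52. Library 2 had 23.6 for Usp7 and 28.8 for Usp21 there. Stub1, which opposes Usp7 on Foxp3, was above Usp7 in 4 of 4 libraries with a log2 ratio of TPM of 1.00 ± 0.44. The ratio was 0.68 ± 0.52 in the rescaled tables made from the reads and 1.70 ± 0.38 in the older counts. It became -0.17 ± 0.29 in CPM without correction for length.

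Usp7-206, classed as a target of nonsense-mediated decay, led Usp7 in each library with 53.0%, 61.1%, 51.1% and 40.8% of TPM. It is 4488 bases long, and the 139 bases that it lacks in the exon printed above are not a multiple of 3. Its annotated coding part ends after 276 bases. The coding Usp7-207 and Usp7-208 together held 8.52%, 2.04%, 3.69% and 7.39% of TPM in libraries 1 to 4, or 5.41 ± 3.05%, and 7.96 ± 3.68% in the tables made from the reads. Usp7-208 itself was listed at 0 in 3 of the 4 libraries. The long Usp7 transcripts also differ in their first exons and at their ends, and how much of the assignment rests on the 139 bases was not tested.

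Coding shares below 50% were found in a minority of genes. Among the 5876 nuclear protein-coding genes with more than 1 transcript and at least 10 TPM in every library, the median coding share was 82.5%, and 19.0% of them were below 50%. Stub1 and Usp7 were below 50% in every library. Itch had coding shares of 59.4%, 37.3%, 45.8% and 39.8%, or 45.6 ± 9.85%, and Usp21 had 61.3%, 57.4%, 32.8% and 44.6%, or 49.0 ± 12.96%. Both lay on either side of 50% depending on the library. Short transcripts weigh more in TPM than in counts: by expected counts the coding share was 71.4 ± 8.46% for Itch and 69.8 ± 9.13% for Usp21, but 31.7 ± 2.29% for Stub1 and 8.94 ± 5.21% for Usp7.

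**Figure D3:**
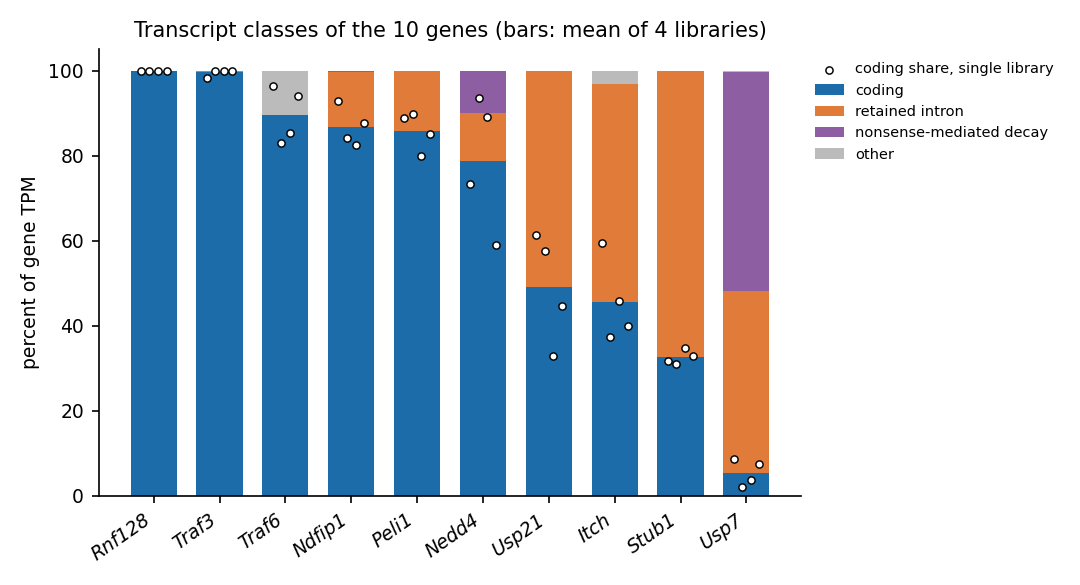
Share of each gene's TPM by annotated transcript class, as bars of the mean over 4 libraries, with open points for the coding share of each library. Coding transcripts hold nearly all of Rnf128 and Traf3, 32.5% of Stub1 and 5.41% of Usp7.

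For Itch, the largest of the non-coding shares was Itch-204, a retained-intron transcript of 1171 bases at the 5′ end of the gene, with 28.3 ± 6.79% of TPM. Itch-201, the coding leader, held 45.6 ± 9.85% in the main tables and 28.6% in the tables made from the reads, where the coding Itch-202, listed at 0 in the main tables, held 8.82%. The highest mean share in the tables made from the reads was that of Itch-204, at 30.9%. For Nedd4, Nedd4-201 led every library with 50.6 ± 5.70% of TPM, on 27 to 67 expected counts for the gene. In the tables made from the reads, Nedd4-201 held 33.1% and the retained-intron transcript Nedd4-205 held 38.8%. Usp21-201 led every library with 46.9 ± 10.7%. It was lowest in library 3, at 32.8%, where the retained-intron Usp21-208 held 28.0%.

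Among the 19 deubiquitinases listed, 13 reached 10 TPM in every library, with a median of 26.0 ± 4.46 TPM (SD over the medians of the 4 libraries). The most abundant were Otub1 at 124 ± 10.3 TPM, an enzyme that also blocks E2 activity, and Usp4 at 101 ± 6.31. Usp22 and Usp44 were the lowest, at 8.08 ± 1.47 and 0.370 ± 0.221 TPM. Usp7 and Usp21 thus stood near the middle of this list.

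The TRAF adaptors Traf3 and Traf6 were among the lower TRAF genes of these cells. Traf3, which holds back the kinase NIK and so non-canonical NF-kB signalling, was read from ENSMUSG00000021277.16 (plus strand, chr12:111166370-111267153). It had 9.30, 6.10, 11.99 and 10.8 TPM in libraries 1 to 4, or 9.55 ± 2.55 (SD, n = 4), with library 2 the lowest. Traf6, a RING ligase that forms K63-linked chains downstream of the IL-1 and Toll-like receptors, was read from ENSMUSG00000027164.8 (plus strand, chr2:101678429-101701669) at 13.4, 9.52, 11.5 and 13.1 TPM, or 11.9 ± 1.78. Library 2 was again the lowest. The log2 ratio of Traf3 to Traf6 was -0.34 ± 0.31, with Traf3 higher in 1 of 4 libraries, so these levels did not differ beyond their spread.

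Traf3 exon 8, whose skipping has been described in activated human T cells, was included in most of the long Traf3 transcripts. Of the TPM of Traf3-201, Traf3-202 and Traf3-203, inclusion was 67.5% in library 1, 63.8% in library 2, 71.8% in library 3 and 67.6% in library 4, or 67.7 ± 3.30% (SD, n = 4). The libraries lay within 10 percentage points. In the tables made from the reads the values were 80.4%, 78.3%, 82.2% and 92.0%, or 83.2 ± 6.03%, each above the main value of the same library. In the main tables the skipped form was Traf3-202 in libraries 1 to 3 and Traf3-203 in library 4. In the tables made from the reads libraries 1 and 4 had the same forms. Libraries 2 and 3 had mostly Traf3-203 there, with 18.2% and 9.79% of Traf3 TPM, against 0% and 1.43% for Traf3-202. These shares are model estimates over whole transcripts, since junction reads were not analysed here. Traf6 was nearly all Traf6-201, its only coding transcript, with 96.3%, 82.8%, 85.3% and 94.1% of TPM.

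Within the TRAF family, Traf1 was the most abundant at 239 ± 29.3 TPM, and Traf2, Traf5 and Traf7 followed at 63.2 ± 10.9, 57.5 ± 12.4 and 47.0 ± 7.55. Traf1, Traf2, Traf5 and Traf7 were each above Traf3 and Traf6 in every library. Traf4 was the lowest of the family at 3.70 ± 1.37 TPM. Of the 15 TRAF and partner genes, 10 reached 10 TPM in every library and the median was 33.9 ± 6.14 TPM (SD over the medians of the 4 libraries). Tank, a TRAF-binding inhibitor, stood at 219 ± 35.8 TPM. NIK, encoded by Map3k14, stood at 33.9 ± 6.17. The TAK1 complex that Traf6 activates was lower, with Map3k7 at 5.98 ± 2.30 TPM, Tab1 at 17.0 ± 3.77, Tab2 at 26.3 ± 5.54 and Tab3 at 1.67 ± 0.161.

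**Figure D4:**
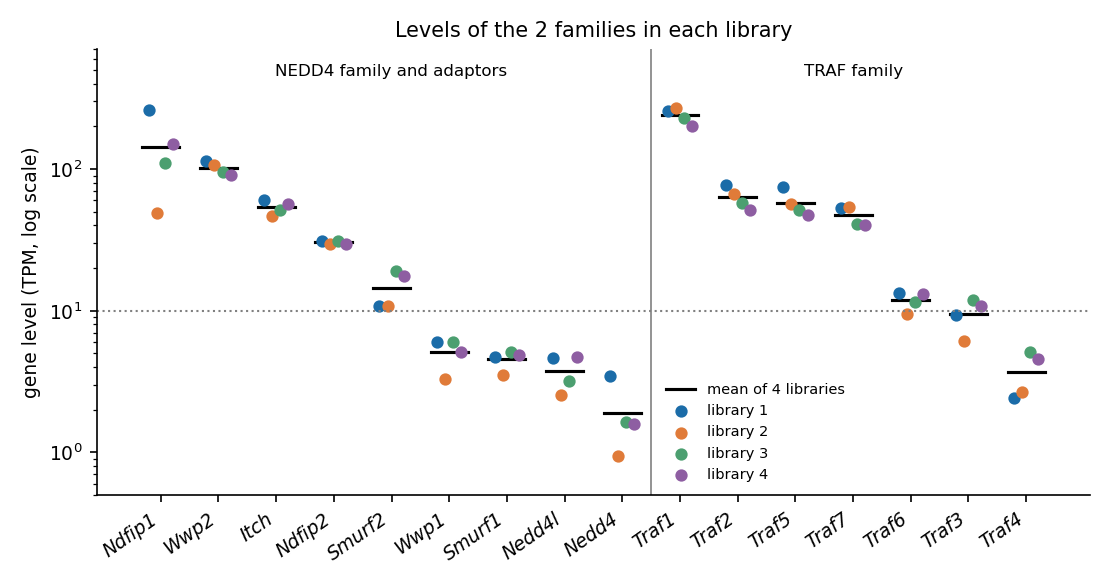
Levels of the NEDD4 family ligases with their adaptors Ndfip1 and Ndfip2 (left) and of the TRAF genes (right), in TPM on a log axis, one point per library with a bar at the mean and a dotted line at 10 TPM. Hecw1 and Hecw2, both near 0, are left out; Traf1 leads the TRAF genes at a mean of 239 TPM and Traf3 and Traf6 lie close to 10 TPM.

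The substrates and partners on which these enzymes are known to act had a higher median than the 10 genes in all 3 quantifications. Of 12 genes, 10 reached 10 TPM in every library, with a median of 39.3 ± 8.08 TPM (SD over the medians of the 4 libraries). Hspa8, the constitutive Hsc70 chaperone that Stub1 binds, was the most abundant at 2249 ± 493 TPM, whereas the inducible Hsp70 genes Hspa1a and Hspa1b were the lowest. Hspa1a had 3.52 and 3.76 TPM in libraries 1 and 2 and 0.80 and 0.49 in libraries 3 and 4. Hspa1b had 4.14, 6.72, 0.40 and 0.32 TPM, with libraries 1 and 2 likewise the higher pair. Those near-identical genes can share reads, so their split is uncertain.

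Foxp3, on which Stub1 and Usp7 act, had 20.3, 21.7, 32.8 and 36.4 TPM in libraries 1 to 4, or 27.8 ± 8.01 (SD, n = 4). In the main tables libraries 3 and 4 were the higher pair for Foxp3, as for Usp7, while Stub1 was highest in library 1. The Itch substrates Junb and Plcg1 stood at 17.6 ± 5.43 and 50.8 ± 9.07 TPM, and Prkcq, which encodes PKC-theta, at 83.1 ± 15.1. Gata3, the Usp21 substrate, stood at 96.5 ± 12.01 TPM, and Rel, the Peli1 substrate, at 18.3 ± 6.45. Trp53, which Mdm2 and Usp7 regulate, stood at 285 ± 46.3 TPM, Cd40lg, a target of Rnf128, at 55.9 ± 4.99, and Smad3 at 15.1 ± 4.07.

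The E1 and E2 enzymes that feed the ligases had the highest median of the pathway lists in the main tables. Of 14 listed genes, 12 reached 10 TPM in every library, and the list median was 76.0 ± 2.46 TPM (SD over the medians of the 4 libraries). Ube2v1 and Ube2n, whose products form the K63-specific E2 used by Traf6, led at 324 ± 60.4 and 270 ± 11.9 TPM. Length-scaled older counts gave 1.07 for Ube2v1 and 103.6 for Ube2n, and the list median there was 18.6, below the 51.8 of the substrates, the 26.7 of the 10 genes and the 24.7 of the deubiquitinases. The place of this list therefore depends on the quantification. Uba6 and Ube2e3 were the lowest, at 13.1 ± 3.68 and 7.60 ± 1.86 TPM. Over all lists, 58 of the 83 pathway genes other than the 10 reached 10 TPM in every library.

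All 10 genes differed between the libraries by more than counting error, as most genes did. In the Poisson likelihood ratio test with Benjamini-Hochberg adjustment over all genes, 8922 of 13036 tested genes (68.4%) passed an adjusted p of 0.05, so 10 of 10 is not a result particular to these genes. All 10 passed the filter of at least 10 counts on average. Ndfip1 gave the highest chi-square, 1712, followed by Peli1 with 212 and an adjusted p of 2.99e-44 and Itch with 79.2 and 3.35e-16. The adjusted p was 1.77e-07 for Traf6, 1.02e-06 for Traf3, 3.07e-05 for Usp7, 0.00025 for Usp21, 0.00041 for Stub1, 0.00111 for Nedd4 and 0.0373 for Rnf128.

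Several of these calls rested on a single library. Without library 1, Nedd4 (adjusted p = 0.237) and Stub1 (0.0734) no longer passed the Poisson test, which 54.4% of all genes passed. Without library 2, Traf3 (0.73) and Rnf128 (0.324) did not, with 54.9% of genes passing. Without library 4, Usp21 (0.156) did not, with 61.8% passing, and without library 3 all 9 members tested passed, with 60.7% of genes. Rnf128 also had an adjusted p of 0.0638 with no filter on counts, where 37.2% of genes passed. The 10 genes all passed with DESeq2 size factors (68.3% of genes), with total counts alone (69.2%) and in the tables made from the reads (62.4%). So did the 9 tested in the older counts (78.4%) and the 8 averaging at least 50 counts (78.7%). In size, the differences of Stub1 and Usp7 were small: on the CPM scale the highest library was 1.33 and 1.31 times the lowest, at the 39.7 and 37.3 percentiles of the same 8337 genes. Peli1 at 1.64 times and Usp21 at 1.72 times stood at the 79.1 and 84.4 percentiles.

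Patterns over the 4 libraries were compared as the root mean square difference of centred log2 CPM, a description with 4 points per gene that share library and depth. Among the 8 members averaging 100 counts or more, Itch and Traf6 were the closest pair at 0.13, with Usp7 and Traf3 also at 0.13. The farthest pair was Ndfip1 and Usp21 at 0.92. Of 8336 genes compared, the nearest were Phf8 and Itpr3 to Itch, Gtf2h1 and Ppp1r10 to Stub1, Ski and 2010016I18Rik to Usp7, Tmem131 and Sp4 to Traf3, and Klhl42 and Ccdc82 to Traf6, each within 0.03. Peli1 had Gm49364 and Gm48611, and Usp21 had Gm12918 and Mrpl10, also within 0.03. Ndfip1 had no gene as close: its nearest were Gm37262 at 0.19 and Tmem192 at 0.20, with 38.6, 9.59, 21.6 and 25.6 TPM for Tmem192 in libraries 1 to 4.

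The levels were next set beside the other deposited quantifications. In the tables made from the reads, a pseudogene, Gm29013, took 16.9% to 24.9% of all TPM, so these tables were rescaled over nuclear protein-coding genes. After rescaling, Itch stood at 49.1 ± 2.28 TPM, Stub1 at 49.4 ± 8.19, Usp7 at 31.4 ± 8.62 and Ndfip1 at 125 ± 74.0 (SD, n = 4). Length-scaled counts on the older annotation were higher for Stub1, at 102 ± 13.4, and for Usp21, at 24.7 ± 4.27, and lower for Traf3 and Traf6, at 3.64 ± 1.36 and 6.35 ± 0.996. There Stub1 was the highest of the 10 genes, with Ndfip1 next at 91.0 ± 75.0. Traf3 counts on the older annotation were 159, 93, 227 and 174, or 0.324 to 0.549 times the main counts. Nedd4 and Rnf128 were the lowest of the 10 genes in all 3 quantifications.

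**Figure D5:**
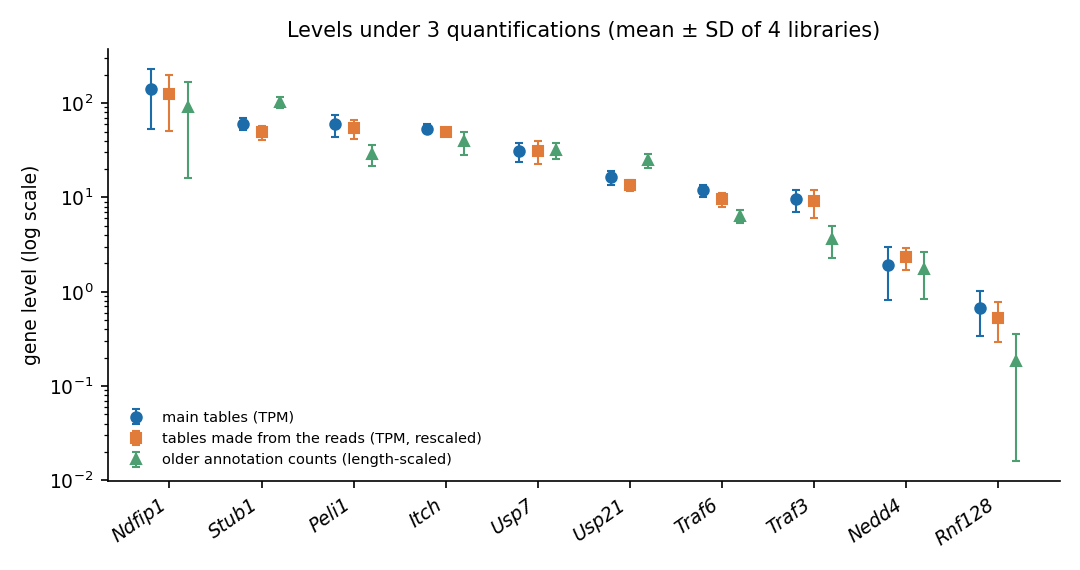
Level of each gene under the 3 quantifications on a log axis, as the mean with SD over 4 libraries: TPM of the main tables, rescaled TPM of the tables made from the reads, and length-scaled counts on the older annotation. Stub1 and Usp21 rise and Peli1, Traf3 and Traf6 fall in the older counts, and Nedd4 and Rnf128 stay lowest.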

How the data were processed

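PolyA-selected RNA of 1 biological replicate was measured in 4 technical libraries, and the labels' size range was 100 to 300 bp. The authors deposited, per the file headers, gene and transcript tables with expected counts, TPM and the percent of gene TPM per transcript (mm10, GENCODE M21, from a transcriptome alignment per the notes deposited with the tables). They also deposited transcript tables of estimated counts and TPM made from the reads and an index, and whole-number gene counts on GENCODE M4 from a genome alignment. Which programs and strand settings were used is not given in the sources used here. Rows outside the chromosome annotation held 0.199% to 0.576% of expected counts and were left out.

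The 10 genes and all lists were chosen with earlier results of these data known. Named genes were the 10 members, every NEDD4 and TRAF family gene, all listed substrates, the 2 highest and 2 lowest genes of each other list, and the 2 nearest patterns of each member averaging at least 100 counts. The TAK1 complex genes, Tank, Map3k14, Siglech, Nkg7, Hba-a1 and Hbb-bt were named after their values were seen. One marker of the erythroid list is not reported here. Levels are means with SD over libraries. Rounded expected counts were tested between libraries with a Poisson likelihood ratio test (edgeR 4.0.16 TMM scaling, mean count of at least 10), written in Python 3.11.15 with scipy 1.17.1 and tested on simulated data. DESeq2 1.42.0 size factors, other filters, the other quantifications and leaving out each library were the alternatives. M4 counts (22195 genes matched) were divided by the effective length of the main table, at least 50 bp, and scaled to the same total. Sequences were cut from the GENCODE M21 transcripts.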

Additional observations from a re-analysis of the deposited data

Results flagged for a closer look

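In 2 of 30 values screened over the 4 libraries, 1 library stood apart from the others by more than the 95% critical value of Dixon's ratio. Chance flags about 1 in 20 such groups, but this rate does not hold for the 2 flagged. In both, 3 libraries tie at 100%, so any deviation of the remaining library gives a ratio of 1.0 and is flagged. Rnf128-202 held 0.0% of Rnf128 TPM in library 3 and 100% in libraries 1, 2 and 4, on 5 to 21 counts per library. Coding transcripts held 98.3% of Traf3 TPM in library 1 and 100% in the other 3 libraries, where the retained-intron Traf3-205 was listed at 0. This rests on 1.81 expected counts of Traf3-205 in library 1, and in the tables made from the reads Traf3-205 held 6.16%, 0%, 7.32% and 12.5% in libraries 1 to 4, so library 1 did not stand apart there.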

How the results depend on the processing

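The ratio of the highest to the lowest Ndfip1 library, 5.31 in TPM, was 10.001 in length-scaled older-annotation counts (an alternative chosen after seeing the data) and ranged from 2.35 to 5.31 with each library left out in turn. Stub1 over Usp7, a log2 ratio of 1.00 ± 0.44 in TPM, reversed to -0.17 ± 0.29 in CPM without length correction, which is the correction that this alternative drops. In length-scaled older-annotation counts the ratio was 1.70 ± 0.38. The older-annotation counts moved 18 of 24 distinct levels and ratios by more than 1 SD, and the cause was not tested. The count of the 10 genes called between libraries was 8 to 10 over the alternatives, with 9 of 9 tested without library 3 and in the older counts and 8 of 8 at a mean count of at least 50. Among all genes the share called ranged from 37.2% with no filter to 78.7% at a mean count of at least 50. Depth limits Rnf128 and Nedd4 most, at 5 to 21 and 27 to 67 counts per library. No paired analysis was possible because the series has a single group.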
